A study of Mus musculus with 16 samples.

Results

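Retained regions were stretches of the mouse genome that carried a peak of H3K27Ac in all 5 inflamed Mdr2-/- livers, in none of the 5 WT livers and in at least 4 of the 5 HCC nodules. Overlapping or adjoining peaks of the 15 animals on chromosomes 1 to 19 merged into 55617 regions. Of these, 2713 were gained with inflammation, that is, occupied in 5 of 5 inflamed and 0 of 5 WT livers (4.88% of all regions), and 408 of the gained regions were retained in nodules (0.734% of all regions and 15.0% of the gained regions). Members were selected on occupancy in all 15 peak lists, so their presence in inflamed livers and nodules and their absence from WT livers describe the rule and are not findings. The other gained regions are used for comparison. They are called variable where 1 to 3 nodules had a peak (1821 regions, 67.1% of gained) and absent where no nodule had one (484 regions, 17.8%).

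Acetylation of lysine 27 on histone H3 marks active promoters and enhancers, and is laid down by the acetyltransferases p300 and CBP when transcription factors recruit them. In the liver, sites of H3K27Ac differ between hepatocytes, cholangiocytes, stellate cells, endothelial cells and leukocytes, and they change when tissue is injured or inflamed. Mdr2 (also called Abcb4) transports phosphatidylcholine into bile. Without it bile acids are poorly emulsified and damage hepatocytes, and the chronic injury that follows ends in liver cancer.

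The study profiled whole tissue of 15 mice by H3K27Ac ChIP-seq, 1 library per animal and 5 animals per group. WT livers came from mice with intact Mdr2, labelled FVB.129P2 and 14 to 19 months old; the study's methods name their strain FVB/NJ. Inflamed livers came from FVB.129P2-Abcb4tm1Bor/J mice, a full knockout of Mdr2 (Mdr2-KO), 7 to 8 months old, and HCC nodules from mice of the same knockout strain aged 14 to 19 months. All 15 animals had received clodronate liposomes, which deplete phagocytic macrophages, at 50 µg per g of body weight for 48 h. The values given here are those of the sample labels. The study's text differs from them in the amount of clodronate and the exact ages, and calls the WT mice age matched. By the labels inflamed livers were younger than both other groups. From inflamed against WT livers alone, age, the Mdr2 genotype and inflammation then cannot be told apart in the gain. Nodules carry the same age label as WT livers, and by the rule retained regions had peaks in at least 4 nodules and in no WT liver. Age and the change to a nodule cannot be told apart in the retention. The tissue was bulk and the controls were treated as well, so more cells of a type and more acetylation per cell cannot be told apart, and no group shows livers with their full content of macrophages. Nodules were not shown by any label to be clonal, and the labels do not give the sex of each animal.

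The files held the position and the score of each peak but no reads, and the sequencing depth of every library is unknown. A peak missing from a list means that none was called there, not that acetylation was absent. List length was 27722 ± 1390 peaks in WT livers, 37602 ± 1756 in inflamed livers and 32848 ± 6914 in HCC nodules (SD, n = 5 each, chromosomes 1 to 19). Because scores came on a scale that the files do not name, they were used only as percentiles within a list: the percentile of a region is the share of the animal's peaks with a lower score than its best peak there, tied peaks taking their middle rank. Between 9.65% and 24.6% of each list was tied at a score of 3100, with a smaller number of peaks above it, and peaks within the tie cannot be ranked among themselves. A percentile also depends on how many weak peaks a list holds, so percentiles are compared between classes of regions within an animal, and levels in lists of different length are given side by side.

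Several libraries stood apart. The study removed some of these 15 libraries as outliers in its own comparison of them, without naming them in the text used here, whereas all 15 lists enter the rule. HCC 124711 had the shortest list of the nodules, 26235 peaks, and a peak in 9.81% of gained regions, against 26.8% for HCC 123390 (28118 peaks), 35.5% for HCC 123206 (29475 peaks), 46.6% for HCC 125278 (38547 peaks) and 75.5% for HCC 125279 (41863 peaks). The order of the nodules by the share of gained regions they held was the order of their list lengths. With HCC 124711 left out, the rule became a peak in at least 3 of the other 4 nodules, and 850 regions met it (31.3% of gained). Among WT livers, 130748 held the only WT peak of many regions that otherwise met the rule: without it 785 regions were retained, and without WT 130748 and HCC 124711 together 1277 (33.3% of gained). The part that depth, tissue content and antibody efficiency had in these differences was not tested.

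Nodules contributed unequally to the 408 regions. HCC 125279 had a peak in all 408, HCC 125278 in 393 (96.3%), HCC 123206 in 387 (94.9%), HCC 123390 in 375 (91.9%) and HCC 124711 in 138 (33.8%). Only 69 regions had a peak in all 5 nodules, and 339 in 4 of 5. In 270 of those 339 (79.6%) the nodule without a peak was HCC 124711, in 33 it was HCC 123390, in 21 HCC 123206, in 15 HCC 125278 and in none HCC 125279. Most retained regions were thus regions shared by the 4 nodules other than HCC 124711.

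**Figure D1:**
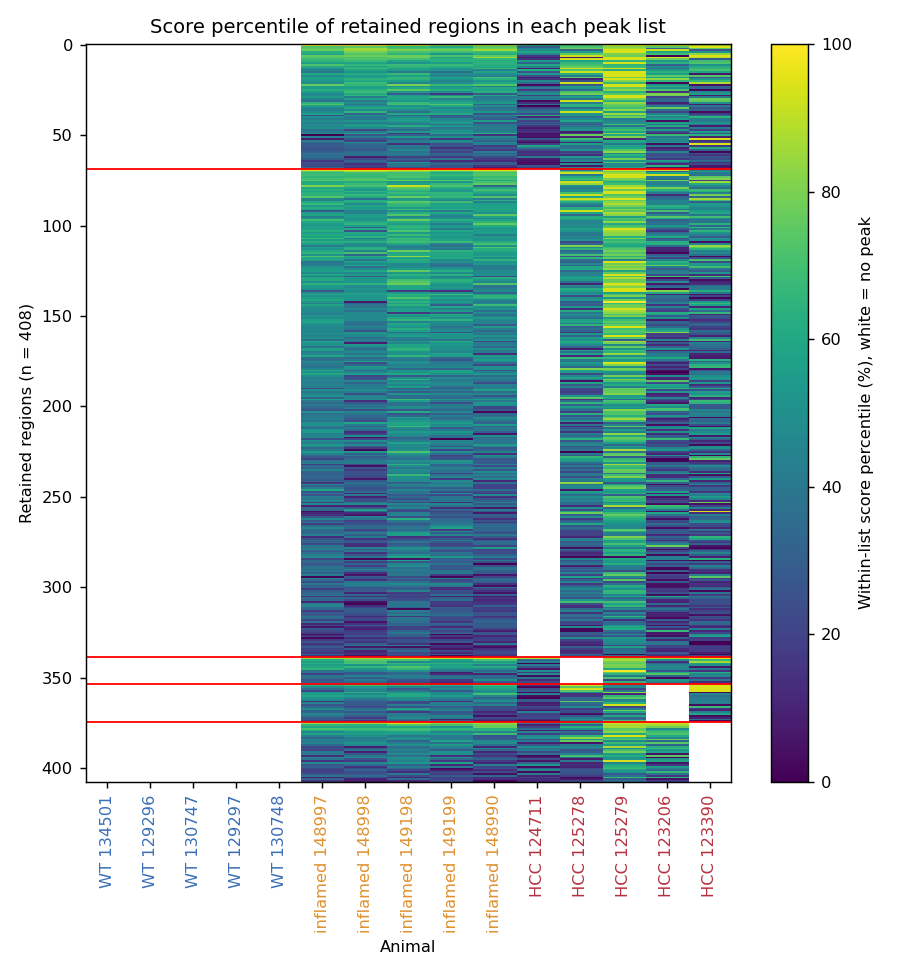
Within-list score percentile (colour, in percent) of the best peak in each of the 408 retained regions (rows) for the 15 animals (columns), with white for no peak. Red lines separate the 69 regions with a peak in all 5 nodules from those that lack one in HCC 124711 (270), HCC 125278 (15), HCC 123206 (21) and HCC 123390 (33), and within a block regions are ordered by mean percentile. Where a peak was called, HCC 125279, the longest list, is brightest and HCC 124711, the shortest nodule list, darkest among nodules.

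Each nodule was left out in turn, and the 2713 gained regions were grouped by how many of the other 4 nodules had a peak. The 5 rounds rearrange the same occupancies: the regions held by all 4 others and by the nodule left out are the same 69 in every round, and those held by no nodule the same 484, so the shares are a description and not independent of the counts above. In HCC 124711, a peak was present in 3.97% of regions that no other nodule held and in 20.4% of those that all 4 others held (69 of 339; 95% Wilson interval 16.4% to 24.96%). In HCC 123390 the same shares were 3.01% and 67.6% (69 of 102), and in HCC 123206 6.20% and 76.7% (69 of 90). In HCC 125278 they were 12.2% and 82.1% (69 of 84), and in HCC 125279 48.6% and 100% (69 of 69). The share was higher at each further nodule in every one of the 5 animals. Averaged over animals, it was 14.8% ± 19.2 with 0 other nodules, 34.9% ± 31.1 with 1, 45.2% ± 31.3 with 2, 60.3% ± 31.6 with 3 and 69.4% ± 29.8 with 4 (SD, n = 5). From 1 other nodule on, the SD between nodules exceeded the step to the next mean, whereas the order held within each nodule. Intervals cover counting error only.

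**Figure D2:**
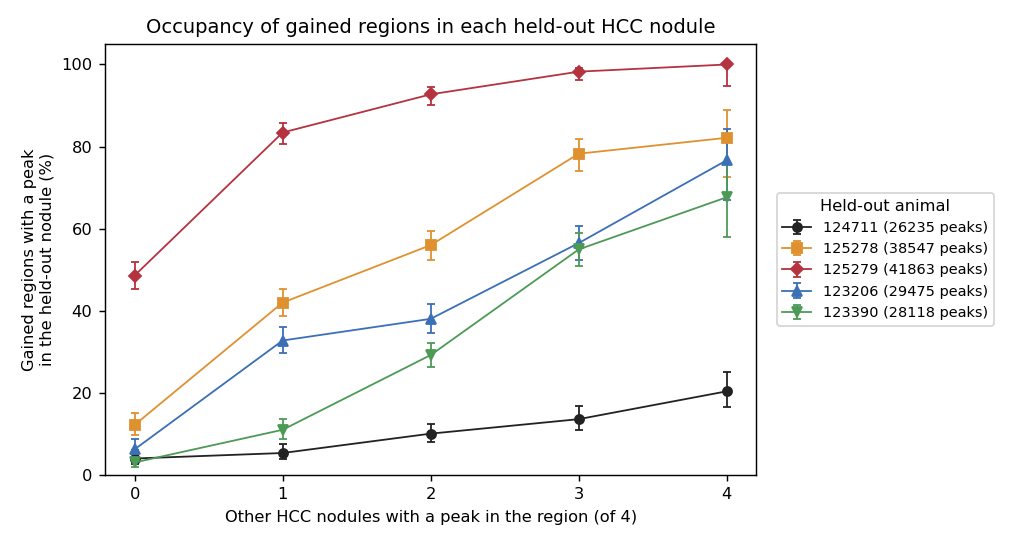
Percent of gained regions with a peak in the nodule left out (vertical axis) by the number of the other 4 nodules with a peak (horizontal axis), 1 line per nodule with 95% Wilson intervals. All 5 lines go up from left to right, from 48.6% to 100% in HCC 125279 and from 3.97% to 20.4% in HCC 124711.

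The inflamed and WT livers were left out in the same way, with the rule applied to the remaining 14 lists, and again the regions with a peak in the inflamed liver left out are the same 408 retained or 484 absent regions in every round. An inflamed liver left out had a peak in 97.1% (148997), 95.6% (148998), 98.3% (149198), 95.3% (149199) and 93.4% (148990) of the regions retained in the others, a mean of 95.9% ± 1.89 (SD, n = 5). Absent regions defined on the other 14 lists had a peak in 84.8% ± 20.1, from 49.3% in 148990 to 98.0% in 149198. The left-out WT livers had a peak in 13.4% (134501), 12.5% (129296), 17.6% (130747), 2.16% (129297) and 47.8% (130748) of the regions that were retained by the other 14 lists, a mean of 18.7% ± 17.2 (SD, n = 5). For absent regions the WT mean was 4.78% ± 4.89. The share was higher for retained than for absent regions in 5 of 5 inflamed and 5 of 5 WT animals, although in inflamed 149198 by less than 1 percentage point. In the WT rounds, the regions without a peak are likewise the same 408 or 484 each time. These orders therefore restate occupancies that the rule used, and they are a description only.

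Among regions with a peak in all 5 inflamed livers, the share with a peak in at least 4 nodules was 15.0% where no WT liver had a peak, 33.9% with 1 WT liver (590 of 1743), 45.4% with 2, 53.0% with 3, 68.4% with 4 and 94.2% with 5 (13816 of 14665). Along the other margin, regions without any WT peak had peaks in at least 4 nodules in 1.28% of cases where no inflamed liver had one (153 of 11946), 1.75% with 1 inflamed liver, 2.20% with 2, 3.75% with 3, 5.10% with 4 and 15.0% with 5. The 408 retained regions made up 50.4% of the 810 regions that had a peak in at least 4 nodules and none in WT livers. Recurrent nodule peaks outside the WT lists were thus as often in regions shared with every inflamed liver as in all others together.

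The regions differed in strength within the inflamed livers. The split by nodules did not use scores of inflamed livers, but it is not independent of region length, since a longer region is more easily met by a nodule peak and nodule peaks can join separate inflamed peaks into 1 region. The median percentile of retained regions was 43.1 in 148997, 39.8 in 148998, 47.7 in 149198, 42.9 in 149199 and 40.0 in 148990, a mean of 42.7 ± 3.21 (SD, n = 5). Variable regions had 33.5 ± 5.51 and absent regions 31.5 ± 9.29. Without HCC 124711 the mean for retained regions was 39.3, still the highest of the 3 classes. Retained regions were above variable regions in 5 of 5 animals, by 9.19 ± 2.73 percentile points (SD, range 5.82 to 13.3), and above absent regions in 5 of 5, by 11.2 ± 6.93. Variable and absent regions were not ordered alike in the animals: the first were higher in 2 of 5, with a mean difference of 2.01 that was smaller than its SD of 4.35. Inflamed 148990, which had the shortest inflamed list, gave the lowest median for absent regions, 17.4, against 31.0 to 43.4 in the other 4.

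Within the retained set, regions with a peak in all 5 nodules had a median percentile in inflamed livers of 49.6 ± 3.78 and those in 4 of 5 one of 41.1 ± 3.72, again ordered alike in 5 of 5 inflamed animals (difference 8.51 ± 3.78, SD). Per inflamed animal, peaks covered a median of 3168 ± 208 bp of a retained region, 2850 ± 226 bp of a variable region and 2745 ± 297 bp of an absent region, and retained regions were above absent regions in 5 of 5 animals, by 423 ± 214 bp. In each inflamed animal between 84.6% and 89.5% of retained regions contained exactly 1 peak, fewer than the 92.2% to 94.7% of variable and the 94.2% to 97.9% of absent regions. In the regions held by exactly 1 peak of the animal, chosen as a comparison after seeing the data, the median percentile of retained regions was above that of absent regions in 5 of 5 animals, by 10.3 ± 7.09 percentile points, and above that of variable regions in 5 of 5, by 8.32 ± 3.05 (SD). The length under peaks was above that of absent regions by 262 ± 210 bp (SD) and in 5 of 5 animals, a smaller difference than over all regions.

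**Figure D3:**
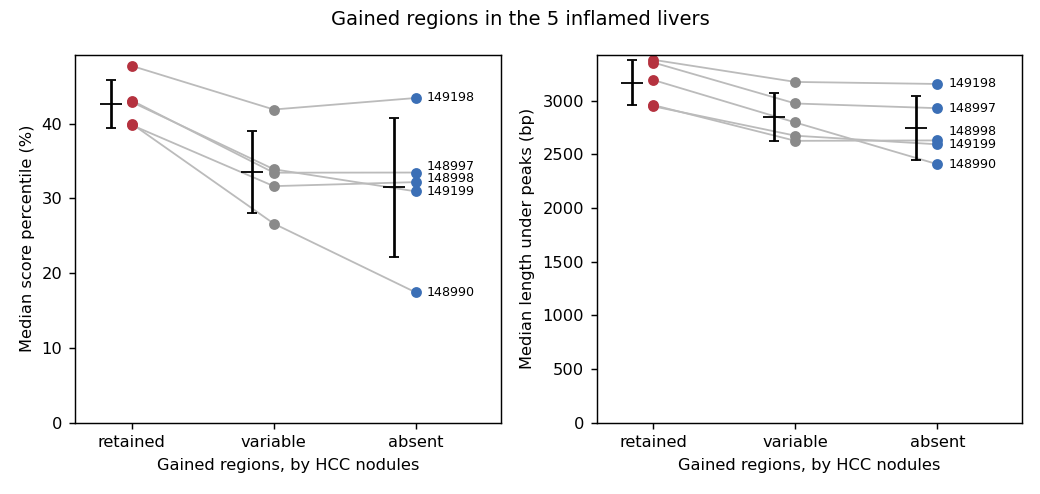
Median within-list score percentile (left) and median length under peaks in bp (right) of gained regions in each of the 5 inflamed livers, divided by the number of nodules with a peak: retained (at least 4), variable (1 to 3) and absent (0). Grey lines join the values of an animal, and black bars give the mean ± SD. Retained regions are highest in every animal on both measures.

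Read the other way, retention was more frequent in regions that were stronger in inflamed livers. In the lowest quartile of the mean inflamed percentile, 7.67% of gained regions were retained (52 of 678; 95% Wilson interval 5.90% to 9.92%), in the next 10.6%, then 14.6%, and in the highest 27.3% (185 of 679; 24.0% to 30.7%). Absent regions made up 22.6%, 19.0%, 18.4% and 11.3% of the same quartiles. For the length covered by inflamed peaks, the retained share was 11.5% in the shortest quartile, 12.8%, 14.2% and 21.7% in the longest. When both measures were halved at their medians, 8.01% of weaker and shorter regions were retained, 11.4% of weaker and longer, 20.4% of stronger and shorter and 21.2% of stronger and longer regions, so the difference by strength was larger than that by length. Between the lowest and the highest quartile of strength, occupancy went from 6.49% to 14.6% in HCC 124711, from 39.1% to 58.6% in HCC 125278, from 68.7% to 84.4% in HCC 125279, from 23.6% to 52.9% in HCC 123206 and from 22.4% to 36.1% in HCC 123390. It was thus higher in the strongest quartile in 5 of 5 nodules.

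**Figure D4:**
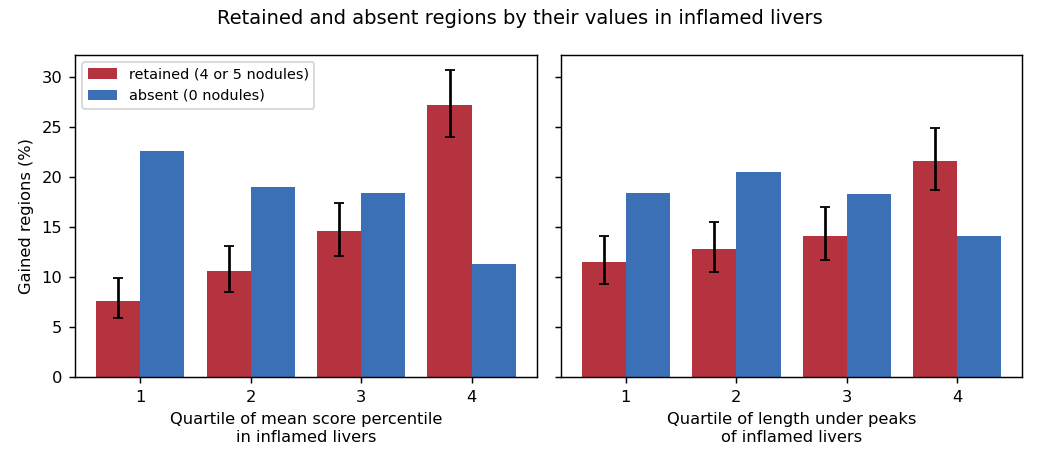
Percent of gained regions that were retained (red, with 95% Wilson intervals) or absent from nodules (blue) by quartile of the mean score percentile in inflamed livers (left) and of the length under inflamed peaks (right), 678 or 679 regions per quartile. The retained share goes from 7.67% to 27.3% with strength and from 11.5% to 21.7% with length.

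Strong regions were few. A percentile of at least 50 in all 5 inflamed livers was met by 63 of 408 retained regions (15.4%), 81 of 1821 variable regions (4.45%) and 5 of 484 absent regions (1.03%). At a percentile of 75 these counts were 5, 3 and 0, and at 90 they were 1, 0 and 0. In the inflamed livers 2 to 5 of the 408 had a score of 3100 or more in a given animal, while 11.3% to 16.1% of all peaks in those lists did. In most retained regions the inflamed peaks were therefore below that score.

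In nodules, retained regions had a median percentile of 22.7 in HCC 124711, 40.9 in HCC 125278, 67.0 in HCC 125279, 32.8 in HCC 123206 and 34.7 in HCC 123390, a mean of 39.6 ± 16.7 (SD, n = 5). The difference from inflamed livers depended on the scale. Compared region by region with the mean of the 5 inflamed livers, the percentile was higher in 16.7% of occupied regions in HCC 124711, 49.1% in HCC 125278, 89.7% in HCC 125279, 37.7% in HCC 123206 and 39.5% in HCC 123390, with median differences of -17.6, -0.50, 23.6, -9.35 and -6.64 percentile points. In HCC 125279, 38 of the 408 regions (9.31%) had a score of 3100 or more. The position counted from the top of the list, which weak peaks do not change, was examined after these values were seen. A position cannot exceed the length of its list and exists only for occupied regions. A short list can therefore place its regions nearer the top for that reason alone. The median position of occupied retained regions was 20280 in HCC 124711, 22769.5 in HCC 125278, 13801 in HCC 125279, 19803.5 in HCC 123206 and 18364.5 in HCC 123390, against 20942.5 to 22531 in inflamed livers. On this scale 61.6%, 45.0%, 82.4%, 62.8% and 68.5% of occupied regions were nearer the top than their mean position in inflamed livers. The side of the inflamed livers on which HCC 124711, 123206 and 123390 fell was thus opposite on the 2 scales, and HCC 125279 ranked its retained regions higher on both.

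The merged regions had a median width of 5365.5 bp (1901 to 22417), and 54 were 10000 bp or wider. Variable regions had a median of 3960 bp and absent regions of 3422.5 bp, but nodule peaks add to the width of the first 2 classes. Counting only positions under an inflamed peak, the medians were 3890.5, 3524 and 3422.5 bp. Because merging can join peaks that do not touch, the positions under peaks of all 5 inflamed livers and of every nodule with a peak were also measured. Such a shared core existed in 378 of 408 regions (92.6%), with a median total of 1873 bp over all 408, and measured at least 1000 bp in 363. In 30 regions there was none, and these are retained by the rule alone. Merging of overlapping peaks largely fixes the overlap of nodule and inflamed peaks, which is given as a description. The median percent of the bases common to all inflamed livers that the nodule's peaks covered was 73.7% in HCC 124711, 98.7% in HCC 125278 and 100% in each of the other 3, and only 3 peak-bearing regions of HCC 124711 and 1 of HCC 123206 had no overlap with an inflamed peak. HCC 124711 thus covered less of these bases than the other nodules.

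Regions named individually were the 10 with a peak in all 5 nodules whose lowest percentile over the 10 Mdr2-KO lists was highest. Coordinates are those of NCBI37/mm9, and no gene is assigned because no annotation of this build was used. First was chr3:9661862-9672615, 10754 bp wide. Its percentiles were 99.7, 99.5, 92.0, 79.2 and 86.7 in inflamed 148997, 148998, 149198, 149199 and 148990. In HCC 124711, 125278, 125279, 123206 and 123390 they were 61.0, 68.5, 93.9, 92.9 and 86.9. All 5 inflamed livers and 3 of the 5 nodules were at or above 79.2 in their own lists. Peaks covered 8229 to 9570 bp in inflamed livers and 7505 to 10754 bp in nodules, with an unbroken shared stretch of 4423 bp at chr3:9663039-9667461.

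The second was chr7:87748647-87756730. Inflamed livers had percentiles of 65.4, 67.4, 58.6, 64.0 and 63.1 there, and nodules of 54.3, 56.7, 65.9, 53.4 and 68.7, in the same order of animals. These 10 values lay between 53.4 and 68.7, and the ranges of the groups overlapped. Inflamed peaks formed 2 separate blocks in this region, whereas in HCC 125278 and HCC 123390 a single peak ran across both.

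Next came chr18:76322439-76326775 and chr18:64058588-64063742. At the former, inflamed livers had 62.9, 79.0, 70.8, 69.2 and 68.1 and nodules 59.5, 55.6, 93.9, 60.7 and 51.7. By position from the top, HCC 125279 was nearer the top than all inflamed livers, HCC 125278 farther, and the other 3 nodules lay within the inflamed range. At the latter, inflamed livers had 60.4, 73.4, 65.1, 53.5 and 62.8 and nodules 46.4, 75, 80.2, 69.8 and 83.5, and by position from the top all nodules but HCC 124711 were nearer the top than every inflamed liver.

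**Figure D5:**
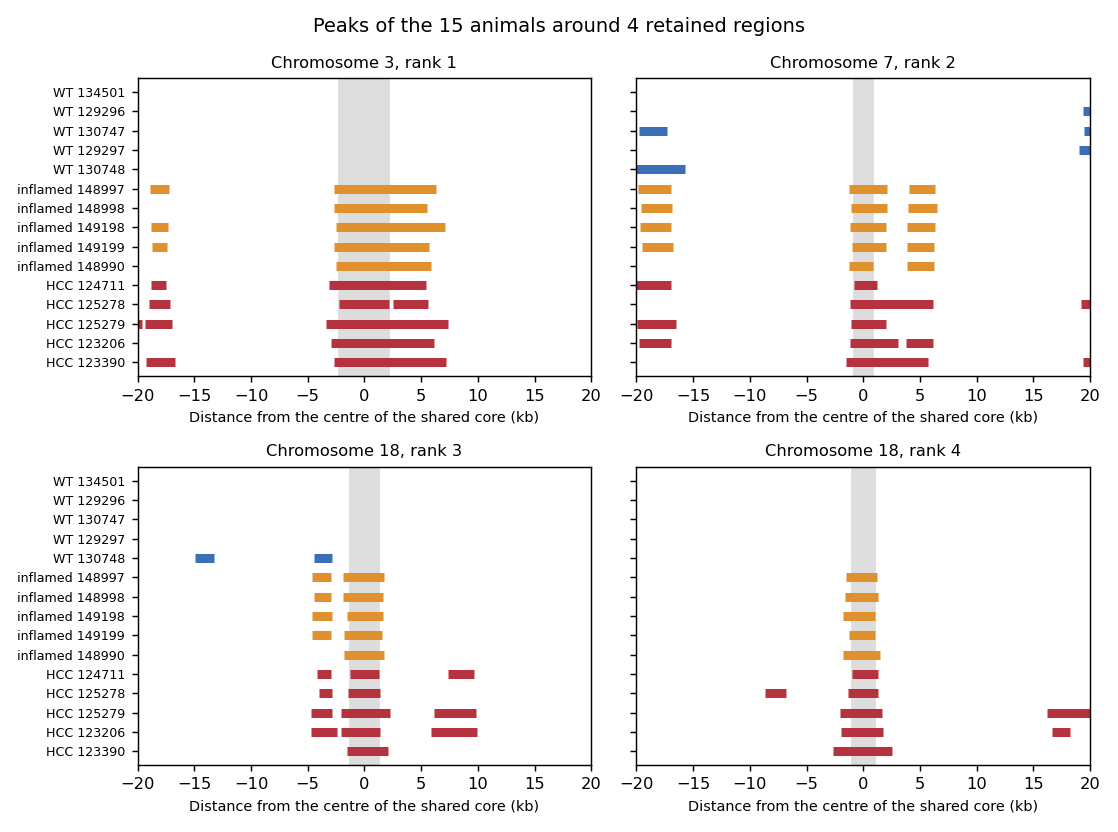
Peaks called in each of the 15 animals (rows; WT blue, inflamed orange, HCC red) within 20 kb of the centre of the longest shared stretch (grey) for the 4 first-ranked retained regions, with distance in kb on the horizontal axis. Inflamed and HCC peaks stack over the grey stretch, which no WT peak overlaps, and WT 130748 has a peak beside the region of rank 3.

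The other 6 were chr5:31336822-31343820, chr5:130737807-130743848, chr3:151773236-151779614, chr2:157324136-157328774, chr17:24140807-24147247 and chr5:93283231-93289329. Their lowest percentiles over the 10 lists went from 45.0 down to 31.1, and their means from 69.9 to 51.4. At chr2:157324136-157328774 the inflamed livers had 74.99, 85.8, 72.1, 72.6 and 78.8, but HCC 123206 had 32.8 and HCC 124711 43.9, while HCC 125278, 125279 and 123390 had 76.9, 86.4 and 74.9. By position from the top the nodules were divided in the same way: HCC 123206 (19818.5) and HCC 124711 (14728.5) were farther from the top than every inflamed liver (5298.5 to 11163.5), and the other 3 lay within the inflamed range. At chr5:130737807-130743848, inflamed livers had 45.4, 58.9, 55.2, 52.1 and 42.8 and nodules 62.0, 72.5, 62.3, 54.6 and 70.9, and by position from the top all nodules but HCC 125279 were nearer the top than every inflamed liver.

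For each nodule lacking a peak in some of the retained regions, the 2 strongest such regions were taken. The clearest was chr2:155628006-155638815, which HCC 125278 lacked although that list was the second longest of the nodules. Inflamed livers had percentiles of 84.2, 87.6, 92.0, 91.7 and 94.1, and HCC 124711, 125279, 123206 and 123390 had 87.0, 83.4, 84.5 and 94.6. This was the only retained region at or above a percentile of 75 in every list with a peak, and peaks covered 7966 to 9242 bp in inflamed livers and 8631 to 10248 bp in those 4 nodules. Its other companion was chr17:35938278-35942663. HCC 124711 lacked chr4:55742329-55749252, with percentiles of 53.3 to 65.2 in inflamed livers and 48.3 to 93.9 in the 4 other nodules, and chr13:5809529-5814339. HCC 123390 lacked chr4:117729678-117738237 and chr8:124661720-124674265. HCC 123206 lacked chr3:133334984-133337220 and chr5:117178756-117188875. The last had percentiles of 92.2 in HCC 125278 and 94.6 in HCC 123390 but of 24.6 and 21.4 in HCC 124711 and 125279 and of 28.3 to 57.9 in inflamed livers, with an unbroken shared stretch of only 108 bp. It was retained by the rule, yet most of its length in the strongest nodules lay outside the stretch common to all.

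The 3 longest unbroken shared stretches were 5263 bp in chr12:103602253-103610511, 4917 bp in chr15:73417949-73430932 and 4883 bp in chr2:155628006-155638815. Their lowest percentiles over the lists with a peak were 6.03, 30.8 and 83.4, in the same order. Length and rank were not compared over all retained regions. At chr12:103602253-103610511 the percentile was 64.3 and 86.2 in HCC 125278 and 125279 but 6.03 and 11.3 in HCC 123206 and 123390, and inflamed livers ranged from 20.9 to 63.4.

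Retained regions were spread over all 19 autosomes, from 12 on chromosome 8 to 31 on chromosome 2, with a median of 22 per chromosome. The retained share of gained regions had a median of 15.5% and went from 10% on chromosome 8 (12 of 120) to 22.6% on chromosome 15 (26 of 115). A retained neighbour within 100000 bp was found for 89 of 408 retained regions (21.8%), 11.0% of variable regions, 4.96% of absent regions and 8.12% of all merged regions without a WT peak. For 26 of the 408 it lay within 10000 bp, and a stretch split by a short gap counts as neighbours. Any other gained region lay within 100000 bp of 52.45% of retained, 51.2% of variable and 56.2% of absent regions. Gained neighbours were thus not particular to retained regions. The densest window of 1 Mb was chr10:18812681-19753301, with 6 retained regions of 10 gained ones. All 6 lacked a peak in HCC 124711 and had one in the 4 other nodules.

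The widest of the 6, chr10:19288220-19309219, spanned 21000 bp and was the strongest. Inflamed livers had percentiles of 66.3, 66.6, 71.1, 61.8 and 67.6 and lengths under peaks of 14572, 12156, 15255, 15732 and 15162 bp. HCC 125278, 125279, 123206 and 123390 had percentiles of 60.2, 93.9, 42.2 and 75.8 and lengths of 10994, 18712, 10035 and 19474 bp. Lengths in nodules lay on both sides of those in inflamed livers. A neighbour at chr10:19277734-19285253 also had the tied score of 3100 in HCC 125279 (percentile 93.9), with 13.2, 24.5 and 58.0 in the other 3 nodules. The remaining 4, at chr10:18812681-18815725, chr10:18840877-18845325, chr10:19410275-19413937 and chr10:19750528-19753301, had mean percentiles between 28.8 and 45.3. Windows with 4 retained regions were found at chr11:114750001-115005068, chr12:86086415-86728664, chr3:151773236-152134803, chr13:5611374-6194236, chr14:33595375-34066540 and chr15:57736621-58580454.

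Retained regions had the shortest median distance to acetylated sites of WT livers among gained regions, but their share near a WT peak was close to that of variable regions. Distances ran from the edges of merged regions, which nodule peaks widen in retained and variable regions, so their order is not independent of width. The median distance to the nearest WT peak was 11430.5 bp for retained, 14401 bp for variable and 27334 bp for absent regions, and 45.1%, 40.0% and 27.7% of them lay within 10000 bp of one. All 23303 merged regions without a WT peak had a median of 14574 bp and a share of 41.2%. To the nearest region with a peak in all 15 animals, the medians were 35757, 55122 and 122185.5 bp, and 51377 bp for all regions without a WT peak. Absent regions were the farthest from both kinds of site. With the top 50% of each list by score, the share within 10000 bp of a WT peak was 29.1% for retained, 30.2% for variable and 21.6% for absent regions, so that retained regions were then not the closest.

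Just outside the rule were 516 gained regions with a peak in 3 of 5 nodules and 590 regions with a peak in 5 of 5 inflamed livers, at least 4 of 5 nodules and 1 WT liver. Their medians of the mean inflamed percentile were 36.2 and 47.6, beside 39.8 for retained regions in 4 of 5 nodules and 49.5 for those in 5 of 5. Of the 590, WT 130748 held the sole WT peak in 373 (63.2%), WT 130747 in 87, WT 134501 in 63, WT 129296 in 58 and WT 129297 in 9. The WT peaks had a median percentile of 24.7. At chr2:117933985-117940364, for example, the peak in WT 130748 had a percentile of 0.02 and 1809 bp, while inflamed livers had percentiles of 41.7 to 72.5. Likewise chr10:26471371-26474616 was kept out by a peak at percentile 0.04 in WT 130748 and chr1:154651218-154658939 by one at 0.22 in WT 129296. On the side of the nodules, chr10:79093091-79103932 lacked a peak in HCC 125278 and HCC 123390 but had percentiles of at least 86.8 in the 8 other Mdr2-KO lists, chr13:112080355-112087732 of at least 71.0 and chr11:28803452-28814445 of at least 67.4, the last 2 without a peak in HCC 124711 and HCC 123390. By its lowest percentile, chr10:79093091-79103932 was above all 408 retained regions, and the other 2 were above all of them but chr2:155628006-155638815. That value skips nodules without a peak, so it covers fewer lists here than in retained regions, and these are single examples. Over whole sets, the median given above was lower at 3 of 5 nodules than at 4 of 5 or 5 of 5. The median of the regions with 1 WT peak lay between those of the 2 retained sets.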

How the data were processed

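H3K27Ac ChIP-seq peak lists of 15 animals were analysed. Per the submitters' processing notes, reads were aligned with Bowtie 0.12.7 and peaks were called with MACS 1.4 on mm9. Each deposited list belongs to 1 animal and holds peak positions with a peak score from 50 to 3233.1. Its scale, the control and the filters are not given in the sources used here. An IgG sample was not analysed here. Peak ends reached position 197069010 of chromosome 1, beyond GRCm38. The reference tables at hand were of GRCm38, so planned steps on genes, sequences and motifs were not run, and marker genes could not be checked against the labelled tissue. Peaks on chromosomes 1 to 19 were merged where they overlapped or adjoined, and an overlap of 1 bp counted as occupied. Groups came from the sample records. Members, classes and gene lists were chosen with earlier results of these data known. Named regions followed a rule: strongest by lowest percentile (all nodules; per missing nodule), longest shared stretch, densest 1 Mb, and nearest to each threshold. Groups and classes were not compared by a test, since occupancy in all 15 lists chose the members. Dixon's criterion marked animals far from the rest of their group. Shares carry 95% Wilson intervals where stated. The code that selects regions was checked on simulated lists with planted regions. Alternatives were other peak sets, merging, thresholds and left-out animals. Python 3.11.15, NumPy 2.4.6, SciPy 1.17.1 and matplotlib 3.10.9 were used.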

Additional observations from a re-analysis of the deposited data

Results flagged for a closer look

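Of 21 groups of 5 values examined, 3 had 1 animal far from the other 4. Chance gives such a gap in about 1 group in 20 where values are independent, which these are not, so that the rate applies to none of the 3 and they are given as values only. HCC 124711 had a peak in 33.8% of the 408 retained regions, against 91.9% to 100% in the other nodules. The rule lets each region lack at most 1 nodule, so these 5 shares are tied to each other. Inflamed 148990 had a peak in 49.3% of the regions that met the rule for absent regions in the other 14 lists, against 89.5% to 98.0% in the other inflamed livers, where the regions with a peak are the same 484 in each round. HCC 125279 had a peak in 48.6% of the gained regions that none of the other 4 nodules held, against 3.01% to 12.2% in the others, where the regions without a peak are the same 484 in each round. HCC 124711 and 125279 had the shortest and the longest list of the nodules, and 148990 the shortest of the inflamed livers. Whether list length accounts for these values was not tested.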

How the results depend on the processing

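The number of retained regions depended on the settings. It was 182 with the top 50% of each list by score, 192 with lists cut to an equal length of 25867 peaks, 956 with bins of 1000 bp, 1207 with at least 4 of 5 inflamed and at most 1 of 5 WT livers, and 69 with all 5 nodules required. It stayed within 1.5 times of 408 where peaks had to cover 50% of a region (310), where peaks up to 1000 bp apart were merged (355), with chromosome X added (412) and in the regions with a shared core (378). As a share of gained regions it was 19.8% with equal lists, 11.9% with 50% cover, 19.4% with bins, 17.4% with the looser rule and 2.54% with all 5 nodules. Leaving out each animal gave 415 to 850 regions and 11.9% to 31.3% of gained regions, and the rule loosens by construction when an animal is left out. The count moved past 1.5 times without WT 130748 (785), HCC 124711 (850), HCC 123206 (652) or HCC 123390 (686). Without WT 130748 and HCC 124711 together, chosen after seeing the data, it was 1277, or 33.3% of gained regions.

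The median percentile of retained regions in inflamed livers was 35.2 with equal lists and 38.8 to 45.0 with each animal left out. It was above that of variable and absent regions in 19 of 19 settings, as was the length under peaks in 17 of 17. Most of these settings only left out animals. Neither measure was rerun with the top 50% of each list, with bins or with the looser rule, so the count and these measures did not face the same settings. The share within 10000 bp of a WT peak with the top 50% of each list was 29.1% for retained, 30.2% for variable and 21.6% for absent regions. Retained regions were then not the highest, in the only alternative tried for this share. No paired analysis was possible because the groups share no animal or replicate number. Unknown depth limits all counts: a region can miss the rule through a single list that is short.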
